A study of Mus musculus with 20 samples.

Results

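Microglia, the resident macrophages of the brain, were followed in mouse cortex through 9 of their genes: C1qa, C1qb, C1qc, Csf1r, Cx3cr1, P2ry12, Fcrls, Tmem119 and Ctss. The genes were chosen by name and matched to Ensembl identifiers, and all 9 were found among the 25317 genes of the count table. The animals were C57BL/6 mice aged 3 months, either wild type or with a heterozygous deletion of Foxp2, a forkhead transcription factor gene, which the study's design text places in the cortex. For each animal, a sample of cleared cortical lysate was kept before the pull-down (Input), and ribosomes bearing a GFP tag were then captured from the lysate with anti-GFP serum (bacTRAP, here IP), so that IP holds the RNA on tagged ribosomes and whatever else the beads retained. Which cells carry the tag and what drives the deletion are not given in the sources used here. RNA-seq libraries of both fractions were compared for 8 animals, namely 5 wild types (wt734, wt736, wt785, wtBT13 and wtBT14) and 3 heterozygotes (het729, het786 and hetBT13). Another 2 heterozygotes, het730 and hetBT14, gave 4 Input libraries with the title endings IX and IXX and no IP, and these entered only an alternative.

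Microglia enter the brain early in development and survey it with motile processes. Their survival depends on signals through the receptor encoded by Csf1r, and they differ from other macrophages by a set of genes that includes P2ry12, Tmem119 and Fcrls. In the cortex they are the main source of C1q, the recognition molecule of the classical complement pathway, which in the mouse takes part in the removal of synapses during development.

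The 20 libraries of the table held 2689544 to 5754169 counts each. In the 16 paired libraries the 9 genes had between 7 and 179 counts, so a value rests on few reads, and none was at 0. Foxp2, the deleted gene, stood at 24.0 to 30.9 CPM (counts scaled to library size with TMM) in heterozygous Input and at 37.9 to 63.7 in wild-type Input, without overlap. In IP the ranges of Foxp2 overlapped, at 31.8 to 55.7 CPM in heterozygotes and 45.4 to 103 CPM in wild types. Animal het729 stood apart from the other paired animals: its 5 red cell genes summed to 2660 CPM in Input, against 273 to 538 CPM in the other 7 animals, and mitochondrially encoded RNA made up 0.398% of its IP counts, against 0.0616% to 0.127%. Markers of other myeloid cells were low. The 12 genes of border-associated macrophages summed to 6.23 to 13.5 CPM over the 16 libraries, and Ccr2, a monocyte gene, was at 0 in 8 of them, with at most 3 counts in the others. Mrc1 and Cd163, defining genes of border-associated macrophages, had at most 19 and 9 counts, and were too low to test.

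The C1q genes encode the A, B and C chains of 1 protein, and lie beside each other on the minus strand of chromosome 4 within 18675 bases (mm10, GENCODE M21), in the order C1qb (ENSMUSG00000036905, 136880129 to 136886187), C1qc (ENSMUSG00000036896, 136889804 to 136893065) and C1qa (ENSMUSG00000036887, 136895917 to 136898803). Each has 3 exons, and no other annotated gene overlaps them. Fcrls (ENSMUSG00000015852, chromosome 3, 87250758 to 87263738, minus strand) encodes a scavenger receptor-like member of the Fc receptor family and overlaps no other gene. Promoters of 6 of the 9 genes were searched, namely C1qb, C1qc, Ctss, Cx3cr1, P2ry12 and Fcrls, but not C1qa, Csf1r or Tmem119. Windows of 250 bases before to 50 after the gene start were taken from the RefSeq promoter table for GRCm38.p6 (mm10). They were searched on both strands for GAGGAA, the core of the site of PU.1 (the product of Spi1, a factor that myeloid cells need), which 4 of the 6 held, against 28.3% of the 32851 windows in the table. Counted from the RefSeq start, the core began 30 bases before it in C1qb and 193 before in C1qc (on the other strand, printed as TTCCTC). It began 144 before the start in Fcrls, and 164 before and at base 1 (on the other strand) in Ctss. For C1qc and Fcrls the RefSeq start lies inside the GENCODE span given above. The AP-1 motif TGANTCA was in none of the 6 windows and in 7.81% of all windows. A match is a string of letters and not a site. The windows of the neighbours C1qb and C1qc, low in IP in every animal, and of Fcrls, at the Input level in wild-type IP, are shown with the PU.1 core in capitals:
C1qb, chr4:136886151-136886450, minus strand: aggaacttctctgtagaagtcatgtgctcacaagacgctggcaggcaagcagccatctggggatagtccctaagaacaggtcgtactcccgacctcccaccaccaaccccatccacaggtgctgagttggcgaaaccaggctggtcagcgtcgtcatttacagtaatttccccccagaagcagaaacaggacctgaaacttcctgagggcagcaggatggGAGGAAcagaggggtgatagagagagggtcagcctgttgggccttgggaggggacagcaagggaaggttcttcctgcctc
C1qc, chr4:136892865-136893164, minus strand: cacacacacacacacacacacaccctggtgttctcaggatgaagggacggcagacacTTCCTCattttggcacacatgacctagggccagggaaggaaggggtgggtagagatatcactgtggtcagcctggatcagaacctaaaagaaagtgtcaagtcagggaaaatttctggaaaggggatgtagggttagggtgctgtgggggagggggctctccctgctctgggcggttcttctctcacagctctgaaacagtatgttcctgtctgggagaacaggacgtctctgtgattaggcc
Fcrls, chr3:87263475-87263774, minus strand: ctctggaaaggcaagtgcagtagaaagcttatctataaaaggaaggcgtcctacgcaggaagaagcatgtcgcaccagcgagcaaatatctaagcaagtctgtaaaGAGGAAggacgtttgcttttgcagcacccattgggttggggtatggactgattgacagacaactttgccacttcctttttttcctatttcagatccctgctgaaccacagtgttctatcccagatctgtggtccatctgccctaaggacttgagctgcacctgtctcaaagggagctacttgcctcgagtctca

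Compared per length in wild-type Input (CPM per kb of merged exons), the order of levels ran from C1qb to Cx3cr1. C1qb led with 37.3 ± 7.71 (SD, n = 5), and was followed by Ctss at 15.1 ± 3.02 and C1qa at 13.7 ± 2.84. Tmem119 (9.75 ± 2.59), C1qc (8.98 ± 1.75) and P2ry12 (8.94 ± 2.51) formed a middle group on this scale. The place of C1qc depends on the length used, since its merged exons hold 1931 bases and its transcript 1203. For C1qa and C1qb the 2 lengths are equal. Per kb of transcript, C1qa over C1qc was 0.649 to 1.17 in the 8 Input libraries and 1.19 to 3.08 in IP. Fcrls (4.04 ± 0.643), Csf1r (3.69 ± 0.906) and Cx3cr1 (2.78 ± 0.25) were lowest. The libraries of neighbours in this order overlapped except at 2 steps, from C1qb to Ctss and from P2ry12 to Fcrls. In wild-type IP the order on the same scale was another one, in which all neighbours overlapped. Ctss came first at 10.4 ± 3.14, then C1qb (8.0 ± 1.72), C1qa (5.67 ± 0.993), Fcrls (4.28 ± 1.13), Csf1r (3.68 ± 1.03) and P2ry12 (3.51 ± 1.02), with C1qc (2.36 ± 0.73), Cx3cr1 (2.26 ± 0.3) and Tmem119 (2.16 ± 0.442) close together at the end. By merged exons, Tmem119 thus went from place 4 in Input to place 9 in IP, and Fcrls from place 7 to place 4.

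**Figure D1:**
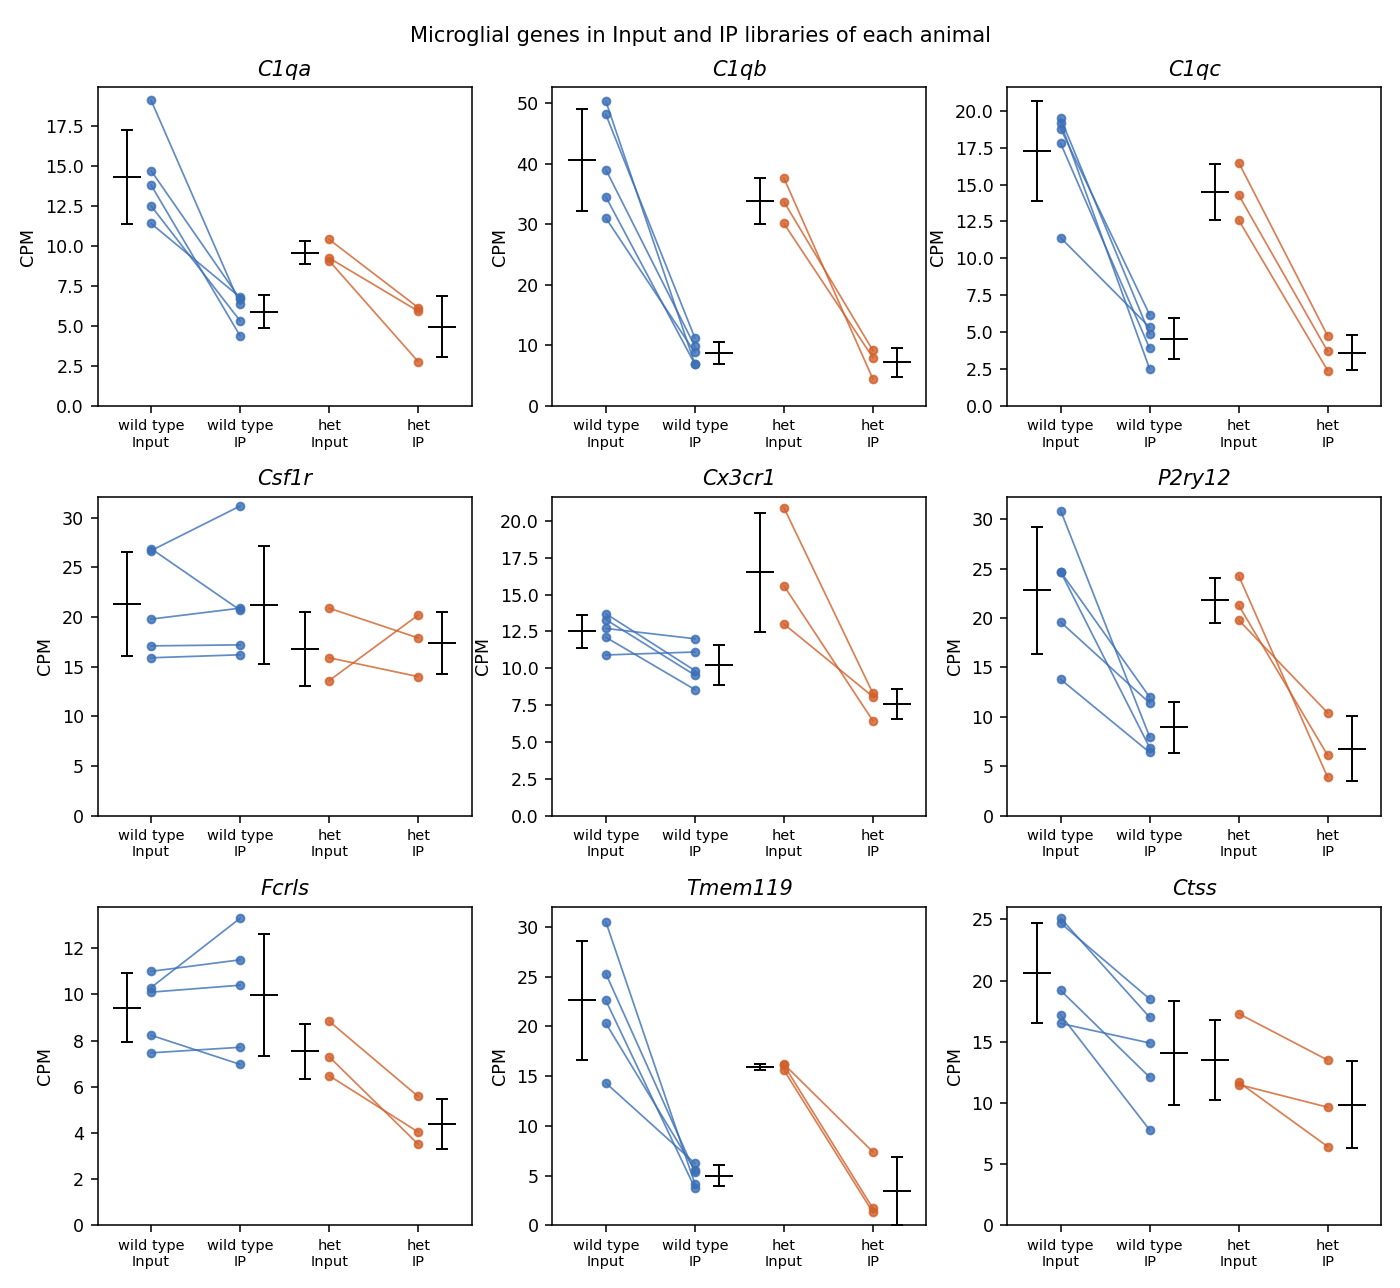
Each panel plots the CPM of 1 gene in Input and IP, with 1 point per library and a line joining the fractions of an animal (blue, 5 wild types; orange, 3 heterozygotes). Black bars give the mean and SD of each group; C1qb fell from a mean of 40.6 to 8.71 CPM in wild types, while that of Csf1r was 21.3 in Input and 21.2 CPM in IP.

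The first comparison sets the level of the microglial RNAs in IP against that in Input of the same animal. Levels are scaled to each library, so a percentage of Input is a ratio of levels and not the fraction of RNA captured. In wild types 6 of the 9 genes were lower in IP, and none was higher: C1qb, Tmem119, C1qc, P2ry12, C1qa and Ctss at fitted levels from 21.8% of Input for C1qb to 67.4% for Ctss. Cx3cr1, Csf1r and Fcrls, which mark the same cells, did not pass. In this fit 3787 of 14797 genes, or 25.6%, were called lower in IP, and 28.5% higher. The fit was edgeR's quasi-likelihood F test on all 16 libraries with animal as a block, and calls were made at a Benjamini-Hochberg adjusted p below 0.05 over all genes. The median log2 change of the 9 genes was -1.28, against 0.03 over all genes tested. In heterozygotes 7 of the 9 were lower and none higher, with a background of 22.1% of genes called lower and 22.6% higher, and a median of -1.1 against 0.04. The members without a call there were Ctss and Csf1r. For the comparisons of genotypes within a fraction, given below, fewer cells of a type and less RNA per cell cannot be told apart in bulk RNA.

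C1qb was the most clearly lower in IP. Its wild-type Input libraries held 48.1 (wt734), 39.0 (wt736), 50.3 (wt785), 34.5 (wtBT13) and 31.0 CPM (wtBT14), and the IP libraries of the same animals 11.2, 9.82, 6.88, 6.86 and 8.80 CPM. The fractions did not overlap, and IP stood at 13.7% to 28.4% of Input (log2 change -2.20, SE 0.17, edgeR adjusted p = 9.22e-10). How many of all genes had fractions without overlap was not counted, here or for the genes that follow. In the heterozygotes het729, het786 and hetBT13, Input held 33.7, 37.6 and 30.1 CPM and IP 9.13, 4.41 and 7.95 CPM. The log2 change there was -2.25 (SE 0.23, edgeR adjusted p = 1.44e-07), within 0.05 of that in wild types.

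C1qc, the C chain, behaved like C1qb. It went from 17.3 ± 3.39 CPM (SD, n = 5) in wild-type Input to 4.55 ± 1.41 in IP (log2 change -1.91, SE 0.21, edgeR adjusted p = 1.41e-07), and from 14.5 ± 1.92 to 3.6 ± 1.18 CPM in heterozygotes (n = 3; -2.02, SE 0.29, adjusted p = 1.02e-05). C1qa, the A chain, was lowered less. Its wild-type Input libraries held 19.1, 13.8, 14.7, 12.5 and 11.4 CPM in the order given for C1qb, and the IP libraries 6.34, 4.37, 6.67, 5.31 and 6.78 CPM. That is a log2 change of -1.28 (SE 0.19, edgeR adjusted p = 1.04e-05), with a 95% interval from -1.68 to -0.87 that does not reach the interval of C1qb, -2.55 to -1.85. In heterozygotes C1qa had a log2 change of -0.98 (SE 0.27, edgeR adjusted p = 0.00601), and without het786 it no longer passed (-0.71, adjusted p = 0.0839).

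The ratio between chains within a library does not depend on the scaling of libraries. Per kb of transcript, C1qa stood at 0.253 to 0.415 of C1qb in the 8 Input libraries and at 0.465 to 1.01 in the 8 IP libraries. It was higher in IP than in Input in 8 of 8 animals, and the fractions did not overlap. C1qc over C1qb did overlap, at 0.304 to 0.511 in Input and 0.329 to 0.642 in IP, and was higher in IP in 5 of 8 animals. These ratios were chosen with the values known and are given without a test. The transcripts are of like length, 1040 bases for C1qa, 1088 for C1qb and 1203 for C1qc, and of like GC content, 59.52%, 57.35% and 57.52%.

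**Figure D2:**
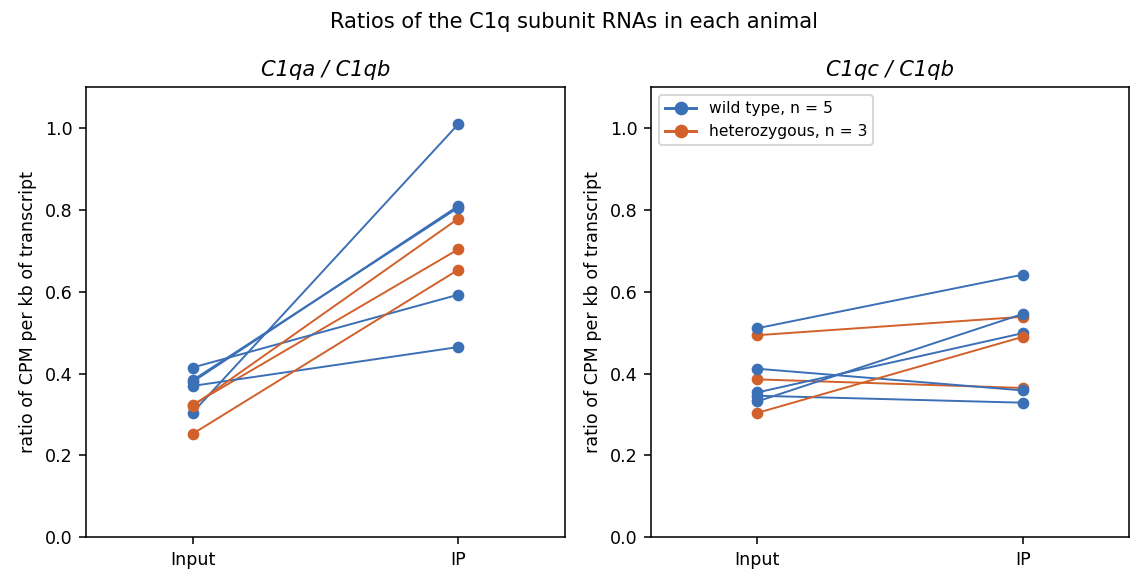
The ratio of CPM per kb of transcript is plotted for C1qa over C1qb (left) and C1qc over C1qb (right) in Input and IP, with a line for each animal. All 8 lines rise on the left, from a median of 0.347 to 0.742, while on the right 5 rise and 3 do not.

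Among the receptors, P2ry12, the ADP receptor that steers microglial processes to damaged cells, followed the C1q genes. Wild-type Input held 24.7, 13.8, 24.7, 30.9 and 19.6 CPM of P2ry12 in wt734, wt736, wt785, wtBT13 and wtBT14, and IP 12, 6.39, 6.88, 7.97 and 11.4 CPM. Every wild-type IP library was below every Input library (log2 change -1.32, SE 0.21, edgeR adjusted p = 1.73e-05). In heterozygotes P2ry12 went from 21.8 ± 2.29 to 6.77 ± 3.3 CPM (SD, n = 3; log2 change -1.71, SE 0.28, adjusted p = 5.62e-05). P2ry12 (ENSMUSG00000036353, chromosome 3, 59216272 to 59262871, minus strand) shares 9 exon bases with Med12l on the other strand.

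Csf1r, the receptor of the growth factors Csf1 and Il34, did not pass in either genotype. Wild-type IP held 20.7, 16.2, 20.9, 31.2 and 17.2 CPM of Csf1r against 26.9, 15.9, 19.8, 26.7 and 17.1 CPM in Input of the same animals. The ranges overlapped, with IP of wtBT13 above every Input library, and the log2 change was -0.01 (95% interval -0.30 to 0.29, edgeR adjusted p = 0.973). In heterozygotes it was 0.05 (-0.36 to 0.45, adjusted p = 0.868), and animals ranged from 85.9% to 148% of Input. By IP as a percentage of Input, Csf1r was the highest or the next to highest of the 9 genes in each of the 8 animals. Csf1r (ENSMUSG00000024621, chromosome 18, 61100598 to 61132149, plus strand, 24 merged exons) shares 873 of its 5774 exon bases with Hmgxb3 on the other strand. The library protocol does not mark strand, so reads in those bases cannot be assigned to either gene. Hmgxb3 itself stood at 91.4% ± 27.4 of Input in wild types (SD, n = 5) and at 79.4% ± 14.8 in heterozygotes (n = 3), and its part in the Csf1r values was not tested.

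Cx3cr1, the receptor of the neuronal chemokine fractalkine, was close to Input in wild types and lower in heterozygotes. Wild-type Input held 13.7, 12.7, 12.1, 10.9 and 13.3 CPM of Cx3cr1 and IP 9.84, 12, 8.55, 11.1 and 9.53 CPM, overlapping ranges with a log2 change of -0.29 (95% interval -0.64 to 0.05, edgeR adjusted p = 0.144). In het729, het786 and hetBT13, Input held 13, 15.6 and 20.9 CPM and IP 8.07, 6.43 and 8.29 CPM. There the fractions did not overlap, and the log2 change was -1.10 (SE 0.22, edgeR adjusted p = 0.000352). Cx3cr1 (ENSMUSG00000052336, chromosome 9, 119901616 to 120069879, minus strand) spans several other genes, and shares 78 exon bases with 1 of them, Gm33858, which was not counted.

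Fcrls, too, was close to Input in wild types and lower in heterozygotes, but for neither gene did the difference between genotypes pass (edgeR adjusted p = 1 for both). In wild-type animals, Input held 11.0, 10.1, 7.47, 10.3 and 8.23 CPM of Fcrls and IP 11.5, 10.4, 7.71, 13.3 and 6.97 CPM, with a log2 change of 0.08 (95% interval -0.29 to 0.44, edgeR adjusted p = 0.739). In heterozygotes, Input held 7.30, 6.48 and 8.84 CPM and IP 3.51, 4.04 and 5.58 CPM. All 3 IP libraries were below all 3 Input libraries (log2 change -0.80, SE 0.26, edgeR adjusted p = 0.017), but the call was lost without het729 (-0.68, adjusted p = 0.102). Tmem119, a membrane protein gene used to tell microglia from other macrophages, was among the lowest in IP. Its Input libraries held 25.3, 22.6, 30.5, 20.3 and 14.3 CPM in wild types and IP 5.34, 3.74, 4.17, 5.54 and 6.23 CPM (log2 change -2.15, SE 0.27, edgeR adjusted p = 3.59e-06). The heterozygous Input libraries were near each other at 16.2, 15.6 and 16.1 CPM, and IP was uneven, at 7.37 CPM in het729 against 1.29 in het786 and 1.69 in hetBT13. These are 42, 7 and 10 counts. The log2 change of Tmem119 in heterozygotes was -2.29 (SE 0.39, edgeR adjusted p = 0.00015), and -3.40 without het729. Tmem119 (ENSMUSG00000054675, chromosome 5, 113793729 to 113800516, minus strand) overlaps no other gene.

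Ctss encodes cathepsin S, a lysosomal cysteine protease that also trims the invariant chain of MHC class II. It was lower in IP in 5 of 5 wild types, at 45.2% to 90.2% of Input, and went from 20.6 ± 4.1 to 14.1 ± 4.26 CPM (SD, n = 5; log2 change -0.57, SE 0.16, edgeR adjusted p = 0.00387). In heterozygotes IP stood at 55.1% to 84.1% of Input in 3 of 3 animals, with a log2 change of -0.46 (SE 0.22) that did not pass (edgeR adjusted p = 0.096). Ctss (ENSMUSG00000038642, chromosome 3, 95526786 to 95556403, plus strand) shares no exon bases with another annotated gene.

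**Figure D3:**
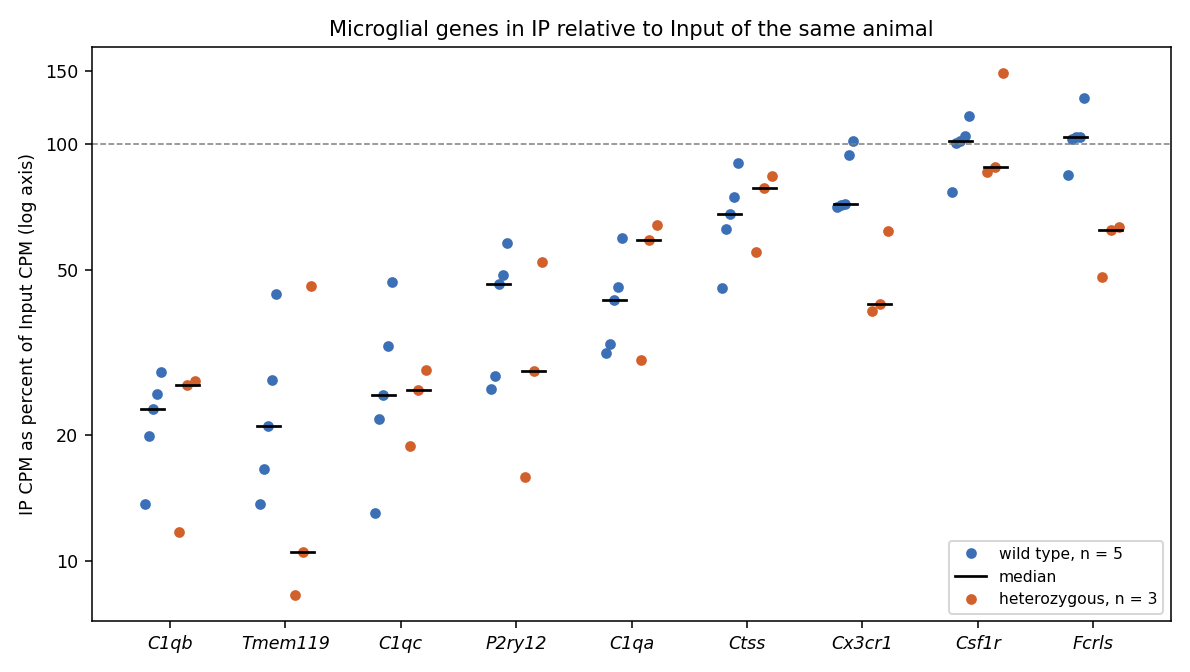
IP CPM is plotted as a percentage of Input CPM of the same animal on a log axis, with 1 point per animal, black lines at the medians and a dashed line at 100%. Genes are ordered by their log2 change in wild types; the 5 blue points of Fcrls lie between 84.6% and 129%, and its 3 orange points between 48.1% and 63.2%.

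The genes at the ends of the order were much the same in every animal, except Fcrls. By IP as a percentage of Input, C1qb took ranks 1 to 3 from the lowest in 8 of 8 animals, Tmem119 and C1qc ranks 1 to 4, and Csf1r ranks 8 and 9. Within 1 animal the highest and the lowest gene differed by 3.43-fold (het729) to 17.9-fold (het786). Fcrls took ranks 7 to 9 in the 5 wild types, and ranks 4, 8 and 6 in het729, het786 and hetBT13. Transcript length and GC content moved with IP against Input over all genes to some degree. Over 14658 genes the median log2 change in wild types was -0.26 for transcripts under 1300 bases and 0.15 for those of 4000 bases or more, and Spearman's rho was 0.21 with length and 0.07 with GC, where genes share libraries and are no replicates. The C1q transcripts are under 1300 bases, and Csf1r (4701) and Cx3cr1 (4493) are over 4000. Tmem119 (2242) and Fcrls (2273) are of like length and lie towards opposite ends of the order in wild types, at ranks 1 to 4 and 7 to 9, but next to each other in het729, at ranks 3 and 4. The part of length in the order was not tested.

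Other genes of microglia also split in wild types. Over all genes 25.6% were called lower there and 28.5% higher. Of 45 listed genes 35 were tested, and 23 were called lower, 1 higher and 11 not, with a median log2 change of -0.85. The gene called higher, which was picked out after its values were seen, was Plcg2 (0.84, edgeR adjusted p = 0.0398), which encodes a phospholipase. Tyrobp (-2.52, edgeR adjusted p = 6.04e-07), the signalling adaptor of Trem2, was lowest. Sall1 (-1.85) and Spi1 (-1.43), transcription factor genes of microglia, fell too, as did Aif1 (-1.48), which encodes the marker Iba1, and Trem2 itself (-1.06, adjusted p = 0.0122). Itgam, an integrin of the complement receptor CR3, was at -0.12 (edgeR adjusted p = 0.735). In heterozygotes 21 of the 35 were called lower and 0 higher, and all 21 were among the 23 of wild types. The median there was -1.12, and of all genes 22.1% were called lower and 22.6% higher. Aif1 (-1.93, edgeR adjusted p = 0.000415) and Spi1 (-1.49, adjusted p = 0.00624) were lower there too, while Trem2 (-0.75, adjusted p = 0.22) and Itgam (-0.74, adjusted p = 0.104) did not pass.

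**Figure D4:**
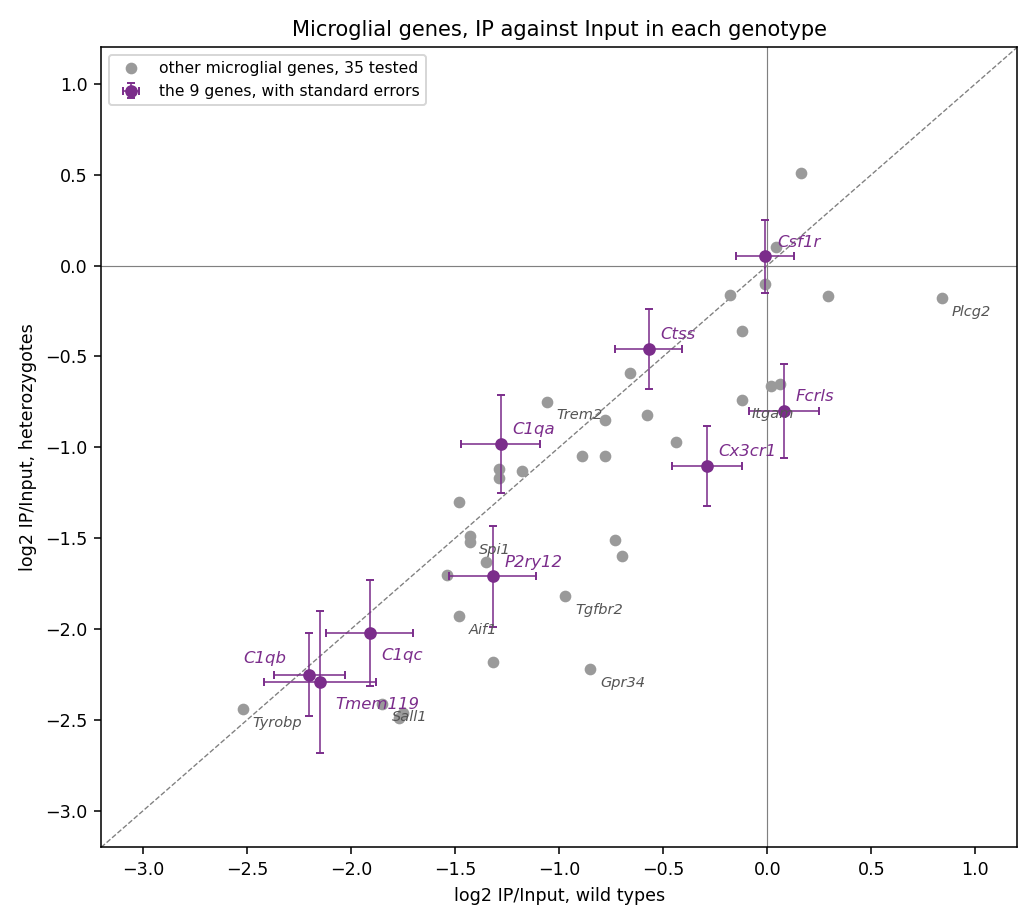
The log2 change of IP against Input in heterozygotes is plotted against that in wild types for the 9 genes (purple, with standard errors) and the other microglial genes tested (grey); the dashed line marks equal change. Cx3cr1 (-0.29 and -1.10) and Fcrls (0.08 and -0.80) lie below the line, while C1qb (-2.20 and -2.25) and Csf1r (-0.01 and 0.05) lie close to it.

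Marker genes of most other cell types were also lower in IP of wild types, where 25.6% of all genes were called lower and 28.5% higher. Of 14 oligodendrocyte genes 12 were called lower and 0 higher (median log2 change -1.86), of 14 astrocyte genes 11 lower and 1 higher (-0.95), and of 7 inhibitory neuron genes 7 lower (-1.80). Of 10 genes of glutamatergic neurons 6 were called higher and 3 lower (0.53). Border-associated macrophages, which also express Csf1r, Cx3cr1 and C1q genes, had 1 gene above the count filter, F13a1, at 0.58 (edgeR adjusted p = 0.0961). Their 12 genes summed to 6.23 to 11.3 CPM in wild-type IP and 9.14 to 13.5 CPM in Input, and their part in the values of Csf1r and Cx3cr1 was not tested.

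Most partners and ligands of the 9 genes lay below Input as well. Of 20 listed, 18 were tested, and in wild types 15 had a log2 change below 0, with a median of -0.40. Of the 18, 9 were called lower and 2 higher, against 25.6% and 28.5% of all genes. Csf1, 1 ligand of the Csf1r receptor, was lower in IP (-1.64, edgeR adjusted p = 0.000252), whereas Il34, the other ligand and one made by cortical neurons, was slightly higher (0.25, adjusted p = 0.0226). Cx3cl1, the fractalkine gene, fell by 0.57 (adjusted p = 2.95e-05). Cst3, which encodes the cathepsin inhibitor cystatin C, fell by 1.93 (adjusted p = 2.04e-12), and Cd74, the invariant chain cleaved by cathepsin S, by 2.41 (adjusted p = 0.000118). P2ry13 (-0.89, adjusted p = 0.00753) and Gpr34 (-0.85, adjusted p = 0.0102), receptor genes near P2ry12 in sequence, were lower as well. Smad3, a mediator of the TGF-beta signal on which microglia depend, fell by 0.37 (adjusted p = 0.00768). In heterozygotes 15 of the 18 lay below 0 again, with a median of -0.52. There 8 were called lower and 1 higher, against 22.1% and 22.6% of all genes. Cst3 (-1.85), Tyrobp (-2.44), Gpr34 (-2.22), Cx3cl1 (-0.67), Cd74 (-1.84), Smad3 (-0.49) and Csf1 (-1.22) were lower in heterozygotes. Adam10, which encodes a protease that sheds fractalkine, was higher there (0.50, adjusted p = 0.00525), as in wild types (0.28, edgeR adjusted p = 0.0245). Il34 did not pass in heterozygotes (0.16, adjusted p = 0.264).

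Among 32 complement genes outside C1q, 19 were tested, and in wild types 7 were called higher in IP and 2 lower, with a median of 0.21, where 28.5% of all genes were called higher. C1ra, a protease that joins C1q, was higher (1.51, edgeR adjusted p = 0.000277). Csmd1 (1.15), Csmd2 (1.03) and Csmd3 (1.42), genes of large membrane proteins with complement control domains, were higher, with adjusted p of 1.62e-05, 0.000211 and 8.33e-07. Clu, which encodes the complement inhibitor clusterin and is strong in astrocytes, fell by 0.68 (adjusted p = 7.89e-07). Of the related synaptic genes, Sez6l2 (0.39) and Sez6l (0.36) were higher and Sez6 was lower (-0.23), with adjusted p of 0.00514, 0.014 and 0.0167. C3 was below the count filter, and C4b did not pass (0.78, adjusted p = 0.0772). In heterozygotes 7 were called higher and 2 lower again, with a median of 0.36 and 22.6% of all genes called higher. There Csmd3 (1.18), Csmd2 (1.34), Csmd1 (1.11), C1ra (1.39), Cr1l (1.26) and Sez6l (0.42) were higher, and Clu (-0.65) and Sez6 (-0.32) lower. Cr1l was also called higher in wild types (0.81, edgeR adjusted p = 0.0175). C4b had a log2 change of 0 in heterozygotes (edgeR adjusted p = 0.996).

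The next comparison asks whether the level of these RNAs in IP against Input differed between genotypes. None of the 9 genes passed, and of 14797 genes tested 0 did (0%), with 454 at an unadjusted p below 0.05 and 0 called by DESeq2. Cx3cr1 came nearest, with a difference of log2 changes (heterozygous minus wild type) of -0.80, a 95% interval from -1.38 to -0.23 and an edgeR adjusted p of 1. Next was Fcrls, at -0.87 with an interval from -1.53 to -0.22 and an edgeR adjusted p of 1. They ranked 46 and 68 among the 14797 genes. For Cx3cr1, IP stood at 70.8% to 102% of Input in wild types and at 39.7% to 61.9% in heterozygotes. For Fcrls the values were 84.6% to 129% and 48.1% to 63.2%, so that the genotypes did not overlap for either gene. Of the 14685 genes tested that had a ratio in every animal, every heterozygote was below every wild type for 192, or 1.31%. The other 7 genes lay between -0.39 (P2ry12) and 0.29 (C1qa), with intervals that included 0. For C1qb the interval was -0.64 to 0.54, and for Tmem119 it was -1.15 to 0.86. Outside the 9 genes, this difference lay between -0.78 (C4b) and 0.42 (Csf1) for Csf1, Il34, Cx3cl1, C4b, Trem2, Tyrobp, Aif1, Itgam and Spi1, each with an edgeR adjusted p of 1.

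The last comparison is that of the genotypes in each fraction. In IP the 9 genes were lower on average in heterozygotes, at 43.9% (Fcrls) to 83.8% (C1qa) of the wild-type mean, and none passed. Of 14755 genes 0 were called (0%) by edgeR, with 604 at an unadjusted p below 0.05, and DESeq2 called 3, none of them a member. The median log2 change of the 9 was -0.41, against 0 over all genes, of which 47.8% had a lower mean in heterozygotes. Without het786, which of the 3 heterozygotes had the lowest IP value of 7 of the 9 genes, the median was -0.15. In Input 8 of the 9 were lower on average and none passed, with 0 of 13870 genes called (0%), 979 at an unadjusted p below 0.05, and 0 called by DESeq2. The median there was -0.33 against 0.01 over all genes, of which 50.8% had a lower mean in heterozygotes.

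Fcrls had the largest difference of the 9 in IP in the fit of all 8 animals. Its wild-type IP libraries held 11.5, 10.4, 7.71, 13.3 and 6.97 CPM and the heterozygous ones 3.51, 4.04 and 5.58 CPM, so that every heterozygote was below every wild type. The log2 change was -1.19 (SE 0.28, 95% interval -1.79 to -0.58), with an edgeR adjusted p of 0.981. By p it ranked 9 of 14755 genes. Over the alternatives the adjusted p ran from 0.271 (DESeq2) to 0.9996 (without het729), and the log2 change from -1.40 to -1.05. Without het729, whose IP held 7.37 CPM of Tmem119 against 1.29 and 1.69 in the other heterozygotes, the log2 change of Tmem119 in IP went from -0.54 to -1.73 (edgeR adjusted p = 0.9996), beyond any value of Fcrls. Fcrls had 20, 22 and 33 counts in the heterozygous IP libraries and 37 to 69 in those of wild types. In Input it was closer, at 7.54 ± 1.2 CPM (SD, n = 3) against 9.42 ± 1.5 (n = 5; log2 change -0.33, adjusted p = 0.759). Cx3cr1 also did not overlap in IP, at 6.43 to 8.29 CPM against 8.55 to 12 CPM (log2 change -0.43, edgeR adjusted p = 0.981), and lay the other way in Input, at 16.5 ± 4.01 against 12.5 ± 1.13 CPM (0.38, 95% interval -0.01 to 0.76, adjusted p = 0.699). Over all genes every heterozygote was below every wild type in IP for 256 of 14755, or 1.74%.

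In Input the genes with an unadjusted p below 0.05 were Ctss, C1qa and Tmem119. Ctss held 11.5, 11.7 and 17.3 CPM in heterozygotes and 16.5 to 25.1 CPM in wild types, with a median of 19.2, which overlap (log2 change -0.63, SE 0.20, edgeR adjusted p = 0.634). C1qa did not overlap, at 10.4, 9.07 and 9.24 CPM against 11.4 to 19.1 CPM (-0.56, SE 0.21, adjusted p = 0.67), which over all genes holds for 397 of 13870, or 2.86%. The IX and IXX libraries of hetBT14, with 14.8 and 12.1 CPM of C1qa, lay inside the wild-type range, while those of het730 held 10.1 and 10.7 CPM, and with these 4 libraries included the log2 change was -0.39. Tmem119 had a log2 change of -0.50 (SE 0.20, edgeR adjusted p = 0.68). P2ry12 was nearly level, at 21.8 ± 2.29 CPM (SD, n = 3) and 22.8 ± 6.4 (n = 5; -0.06, 95% interval -0.48 to 0.37). The animals' names take 2 forms, a number or BT and a number, and what the forms stand for is not given. Within both forms 8 of the 9 genes were lower in heterozygous IP, the exception being C1qb (102% of wild type among BT animals, 1 against 2). Tmem119 in IP was at 28.8% of wild type among BT animals and at 98.0% among the others (2 against 3). In Input 6 of the 9 were lower within both forms. How many of all genes were lower within both forms was not counted, in either fraction.

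**Figure D5:**
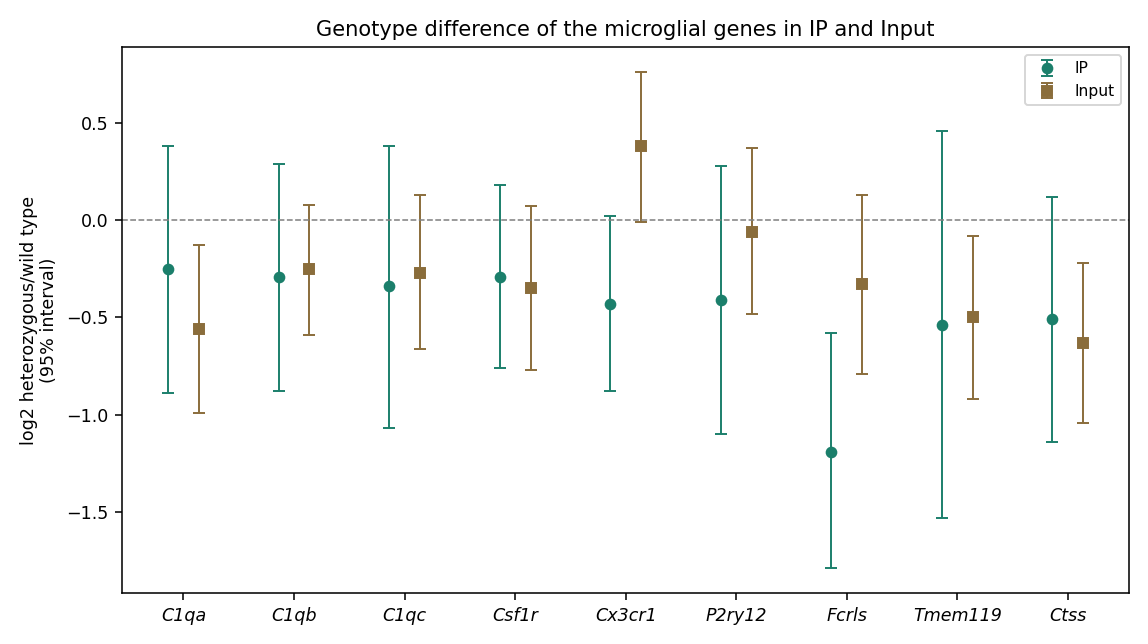
The log2 difference between heterozygotes (n = 3) and wild types (n = 5) is plotted for each gene in IP (circles) and Input (squares), with 95% intervals from the edgeR fit. All 9 circles lie below 0, from -0.25 (C1qa) to -1.19 (Fcrls), and Cx3cr1 in Input (0.38) is the one square above 0.

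Some other lists lay on the same side in heterozygotes, and some did not. Of the 35 other microglial genes tested in IP, 32 had a log2 change below 0 and 0 were called (median -0.48), and in Input 26 of 34 (median -0.13). Astrocyte genes were below 0 for 13 of 14 in IP (median -0.45) and for 13 of 14 in Input (-0.39), with 0 called. In IP, genes of oligodendrocyte precursors were below 0 for 6 of 6 (median -0.67) and those of mural cells for 5 of 6 (-0.64), with medians of 0.05 and -0.10 in Input. Genes of inhibitory neurons had medians of 0.02 in IP and 0.09 in Input, where 6 of 7 were above 0. Red cell genes were above 0 for 4 of 4 in IP (median 2.01) and 5 of 5 in Input (1.57), and 0 genes of these lists were called. Among the paired animals the red cell sum was high in het729 alone. In IP it was 464 CPM there, against 18.2 in het786, 33.85 in hetBT13 and 23.6 to 57.3 in wild types. In Input it was 2660 CPM, against 401, 434 and 273 to 538 CPM in the same order. Among single genes of these lists in IP, the log2 change was 0.40 for Csf1, -0.10 for Il34, -0.12 for Cx3cl1, -0.80 for C4b, -0.33 for Trem2, -0.58 for Aif1, -0.46 for Itgam and -0.36 for Spi1, and none passed. In Input, Csf1, Il34, Cx3cl1, Tyrobp and Aif1 lay between -0.08 and 0.06, Trem2 at -0.64, Spi1 at -0.29 and Itgam at 0.20, and none passed. The 14 astrocyte genes summed to 1160 to 1520 CPM in heterozygous IP and 1340 to 1770 CPM in wild-type IP, and to 2170 to 2470 against 2460 to 3110 CPM in Input. The 9 microglial genes summed to 51.8 to 72.0 CPM in heterozygous IP and 74.7 to 103 CPM in wild-type IP, and to 142 to 161 against 143 to 212 CPM in Input. The part of the astrocyte values in those of the microglial genes was not tested.

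The genes whose pattern over the 16 libraries was most like the mean of the 9 were sought by the root mean square difference of centred log2 CPM among 12174 genes with a mean CPM of at least 5. The nearest 10 were Cd81, Fgfr2, Ntsr2, Il33, Aldoc, Nbl1, Gstm1, Etv1, Cldn11 and Mcur1, with differences of 0.205 (Cd81) to 0.24 (Mcur1). The 9 genes themselves differed from their own mean by 0.229 (C1qa) to 0.692 (Tmem119). Of the astrocyte list 5 of 14 genes were among the nearest 100, as were 3 of 14 oligodendrocyte genes. Of the 20 other microglial genes compared 0 were, with 5 among the nearest 500. Counting error, which is larger at low counts, adds to the root mean square difference. The nearest 10 genes had a mean CPM of 16.1 (Fgfr2) to 830 (Aldoc), and the part of the level in these ranks was not tested. After centring within each fraction, the nearest 10 were Gpr108, Hepacam, Apba2, Cst3, Fmod, Pcnx, Ntsr2, Glg1, Gpr107 and Apod, with differences of 0.133 to 0.181. With this centring 2 of 14 astrocyte genes, 1 of 14 oligodendrocyte genes and 2 of 20 other microglial genes were among the nearest 100. So were 3 of 19 cathepsin, cystatin and lysosomal genes and 2 of 12 genes of microglia in disease models. Of these last 2 lists 10 and 6 genes were among the nearest 500, against 3 astrocyte, 4 oligodendrocyte and 2 other microglial genes.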

How the data were processed

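The authors deposited 1 table of raw counts, with a row for each Ensembl gene and a column for each of 20 libraries (10 animals). Per the submitters' processing notes, HTSeq and the mm10 build were used. Aligner, annotation and strand setting are not given in the sources used here. Smart-seq2 libraries, per the labels' protocols, mark neither strand nor single molecules, so intervals cover counting error only in part and overlapping genes cannot be told apart. Gene names matched 24873 of 25317 identifiers, and 444 had none.

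Counts were tested in R 4.3.3 with edgeR 4.0.16: filterByExpr (count minimum of 10), TMM scaling and robust quasi-likelihood F tests, with Benjamini-Hochberg adjustment over all genes and a threshold of 0.05. Genotype was tested in each fraction separately, 3 against 5 libraries. IP against Input, and its difference between genotypes, came from a fit of all 16 paired libraries that held the animal as a block, because both fractions were taken from the same lysate. As a check of this pairing, deviations from the group means were correlated over 12183 genes. The r of an animal's own fractions was 0.07 to 0.292, and exceeded that with every other animal of its genotype in 7 of 8 animals, the exception being wtBT14 (0.084 against 0.243). CPM use TMM over the 20 libraries on 1 scale. Levels per kb use merged exons of GENCODE M21. Each library comes from 1 animal, and each animal gave more than 1 library. Alternatives were DESeq2 1.42.0, its size factors, other filters, no block, the form of the names as a covariate, the 4 IX and IXX libraries, and each animal left out. The fits were also run on simulated counts without differences between animals, and no result here rests on that run.

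The 9 genes, the lists and the tests were chosen with earlier results of these data known. The genes named outside the 9 follow a rule: members of the ligand and complement lists that passed, up to 8 per comparison by smallest p, and Csf1, Il34, Cx3cl1, C3, C4b, Trem2, Tyrobp, Aif1, Itgam, Spi1, Mrc1, Cd163 and Ccr2 wherever tested; 1 other gene of the rule is not reported here. Sall1, Plcg2 and F13a1 were named after their values were seen. Correlations, overlaps and ratios are descriptions.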

Additional observations from a re-analysis of the deposited data

Results flagged for a closer look

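In C1qc, 1 wild-type Input library lay far from the other 4. wtBT14 held 11.4 CPM of C1qc, while wt734, wt736, wt785 and wtBT13 held 18.8, 17.8, 19.2 and 19.5 CPM. The gap between wtBT14 and the nearest of the others made up 0.789 of the group's range, above the critical value of 0.71 for 5 samples. It was 1 of 27 groups examined in this way, and chance marks about 1 in 20.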

How the results depend on the processing

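The count of members called was 6 lower and 0 higher in wild types under every alternative run, and 6 or 7 lower in heterozygotes, where leaving out het729 ended the call of Fcrls and leaving out het786 that of C1qa. In both genotype comparisons and in their difference 0 members were called under every alternative. The median change of the members, with each animal left out, ranged from -1.40 to -1.17 in wild types, -1.32 to -1.01 in heterozygotes, -0.49 to -0.15 for genotype in IP, -0.45 to -0.25 in Input and -0.29 to 0.06 for the difference. Signs turned in values that had not passed. With 1 animal left out, genotype in IP ranged from -0.44 to 0.03 for C1qa, and genotype in Input from -0.19 to 0.07 for P2ry12. IP against Input ranged from -0.07 to 0.09 for Csf1r and from 0 to 0.14 for Fcrls in wild types, and from -0.20 to 0.18 for Csf1r in heterozygotes. The difference ranged from -0.27 to 0.30 for C1qb, -0.29 to 0.09 for C1qc, -0.02 to 0.26 for Ctss, -0.19 to 0.19 for Csf1r and -1.24 to 0.26 for Tmem119. Without the low-count filter Csf1r in wild types was 0.01. The causes were not tested. Over all genes, DESeq2 called 3 for genotype in IP against 0, and without the filter 28 were called for genotype in Input and 11 for the difference, against 0 each. Without the replicate block the members called were 6 lower in wild types and 7 lower in heterozygotes, as with it, with medians of -1.28 and -1.10; the block changed no call of a member. Values rest on 7 to 179 counts. Exact Poisson intervals treat each read as 1 molecule, and so cover counting error only in part. For Tmem119 in heterozygous IP they were 30.3 to 56.8 in het729, 2.8 to 14.4 in het786 and 4.8 to 18.4 in hetBT13. The interval of het729 did not reach the others, but whether counting error explains the gap was not tested. The median for genotype in Input was -0.31 when the IX and IXX libraries entered as well.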

Other observations

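The 4 libraries ending in IX or IXX came from 2 heterozygous animals and entered only the alternative for genotype in Input. The 9 genes summed to 113 and 122 CPM in those of het730 and to 210 and 193 CPM in those of hetBT14, so that the libraries of an animal lay closer to each other than to those of the other animal. Fcrls held 4.22 and 3.85 CPM in het730 and 7.75 and 7.85 CPM in hetBT14. Tmem119 held 13.5 and 13 CPM in het730 and 26.7 and 23.3 CPM in hetBT14, and Ctss 7.59 and 11.8 against 27.4 and 26.9 CPM. The red cell genes summed to 3370 and 3226 CPM in het730, above het729 (2660 CPM in Input), and to 310 and 358 CPM in hetBT14.

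Of genes expressed by microglia in disease models, 15 of 19 were tested, and in wild types 11 were lower in IP and 2 higher (median log2 change -1.37). Apoe, a lipid carrier gene also strong in astrocytes, was at -2.07 (edgeR adjusted p = 1.65e-10), Fth1, the ferritin heavy chain gene, at -2.72 (3.53e-10) and Lyz2, a lysozyme gene, at -2.27 (1.84e-06), while Ctsl (0.46, 0.000157) and Lpl (0.55, 0.00144) were higher. Cathepsins, cystatins and lysosomal genes had no common direction, with 6 of 22 called higher and 5 lower (median 0.04). Over all genes in this comparison 28.5% were called higher and 25.6% lower, near the shares of that list. Apoe, Fth1, Lyz2, Ctsl and Lpl were named after their values were seen.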
